A study of Mus musculus with 28 samples.

Results

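Levels of 10 early response genes were compared among 28 libraries of cells sorted from mouse lung. The genes were Fos, Fosb, Fosl1, Fosl2, Jun, Junb, Jund, Atf3, Egr1 and Btg2, chosen by name, and all 10 were listed in every table, among 19375 genes that all tables share. The mice were wild-type C57BL/6 animals aged 8 weeks. Each population was taken from mice given papain with FK506, mice given papain, and untreated mice. Papain is a plant protease that provokes allergic lung inflammation when inhaled, and here it was given into the nose at 50 µg per day. FK506 (tacrolimus) inhibits the phosphatase calcineurin and was given intraperitoneally in doses of 0.2 mg per day, before and together with papain. The labels describe no vehicle-injected group and no group with FK506 alone. Innate lymphoid cells of group 2 (ILC2) gave 9 libraries, 3 per condition. Cells labelled basophils gave 7, with 3 papain + FK506, 3 papain and 1 untreated library, the last from 2 pooled mice per its file header. Alveolar epithelial cells gave 6 libraries of type 1 (AEC1) and 6 of type 2 (AEC2), 2 per condition. Outside the basophil files, no source says that replicates came from separate animals, so p-values measure the spread between these libraries, which may be technical.

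Immediate early genes are transcribed within minutes of a stimulus, without the need for new protein. The libraries form no time course, so such a response was not followed over time. The part of cell sorting in the levels was not tested. The Fos and Jun families encode the subunits of AP-1, a dimeric leucine zipper factor. Fos proteins bind DNA only with a Jun partner, while Jun proteins also pair with each other. In lymphocytes AP-1 binds together with NFAT, the factor that calcineurin activates, at cytokine genes. Atf3 is a stress-induced zipper protein of the ATF family, Egr1 is a zinc finger factor, and Btg2 is an antiproliferative protein that promotes the removal of poly(A) tails.

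The libraries did not all follow their labels, and several stood apart. The AEC2 untreated 2 and AEC2 papain 2 libraries were nearly the same, with a Pearson r of 0.96 across genes on the log2 scale, against at most 0.24 in the other 14 AEC2 pairs. Their recovered reads still differed by more than sampling noise (chi-square per gene 2.52, against 49.9 to 82.1 in the other pairs). That measure treats reads as independent molecules and covers counting error only, so it cannot show that they are separate samples. Both were kept as labelled, and fitted AEC2 differences are given with and without them. Library pairs agreed little in the other populations too, with r from 0.12 to 0.28 in AEC1, -0.23 to 0.48 in ILC2 and -0.02 to 0.31 in basophils. These ranges include libraries of the same condition. AEC1 untreated 1 and 2 had r 0.16 and ILC2 untreated 1 and 3 had r -0.04, while ILC2 untreated 1 and 2 had r 0.48. Every comparison below rests on such replicates. In the cells labelled basophils, the basophil genes Mcpt8 and Fcer1a were listed at 0 in 7 of 7 libraries and Cpa3 in 6 of 7, while 20 markers of macrophages, monocytes and dendritic cells added up to 3414 to 11899 CPM (reads scaled to a common library total). The cells labelled AEC1 held less of the AEC1 marker Ager (37.1 to 114 CPM) than those labelled AEC2 (1384 to 3506 CPM), and their fibroblast and smooth muscle markers summed to between 6225 and 15923 CPM. The untreated basophil library listed 2002 genes above 0, against 6401 to 7894 in the other 6. Few genes were also above 0 in ILC2 papain 3 (3134), papain + FK506 1 (3911) and untreated 3 (4008), against 5995 to 7240 in the rest of ILC2. In AEC2, papain 1 (4441) and untreated 1 (4720) listed fewest, against 5727 to 6507 in the rest. In ILC2, replicate 3 of each condition carries a file code other than that of replicates 1 and 2, and its AEC2 markers summed to between 4099 and 6674 CPM, against 0 to 621 CPM in the other 6 libraries. ILC2 papain + FK506 3 held 367 CPM of ILC2 markers (9 of 16 at 0) and 7443 CPM of macrophage, monocyte and dendritic cell markers, against 2045 to 5280 CPM and 269 to 1906 CPM in the other 8 ILC2 libraries. ILC2 untreated 3 held 38192 CPM of airway markers, against 0 to 271 CPM in the other 8. Estimated depth was 847776 to 975455 reads in AEC1 and 1206900 to 1336085 in 5 AEC2 libraries. It was roughly 2078407 to 3123947 reads in basophils, and is unknown where the authors rounded the values.

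The promoters of Fos, Btg2, Junb and Fosl2 are shown because these genes differed between groups of libraries in a test below. Each is a window of 300 bases around the start that RefSeq gives on GRCm38.p6, read on the gene's strand. Capitals mark matches, on either strand, to the core of a cyclic AMP response element (TGACG, part of the sequence that ATF and CREB family proteins bind), to the full element (TGACGTCA), or to an EGR site (GCGNGGGCG). The windows lie at chr12:85473640-85473939 on the plus strand (Fos), chr1:134079106-134079405 on the minus strand (Btg2), chr8:84978699-84978998 on the minus strand (Junb) and chr5:32136222-32136521 on the plus strand (Fosl2).
Fos: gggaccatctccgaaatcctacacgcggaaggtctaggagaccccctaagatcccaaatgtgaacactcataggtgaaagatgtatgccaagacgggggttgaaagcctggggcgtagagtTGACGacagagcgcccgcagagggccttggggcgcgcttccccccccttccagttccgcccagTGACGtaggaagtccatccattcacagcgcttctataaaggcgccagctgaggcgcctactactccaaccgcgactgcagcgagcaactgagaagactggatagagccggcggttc
Btg2: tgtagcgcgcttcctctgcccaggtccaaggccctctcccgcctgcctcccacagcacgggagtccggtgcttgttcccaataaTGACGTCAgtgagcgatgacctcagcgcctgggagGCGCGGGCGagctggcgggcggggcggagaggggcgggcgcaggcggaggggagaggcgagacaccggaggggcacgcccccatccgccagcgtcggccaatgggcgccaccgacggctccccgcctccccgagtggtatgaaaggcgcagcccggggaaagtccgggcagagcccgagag
Junb: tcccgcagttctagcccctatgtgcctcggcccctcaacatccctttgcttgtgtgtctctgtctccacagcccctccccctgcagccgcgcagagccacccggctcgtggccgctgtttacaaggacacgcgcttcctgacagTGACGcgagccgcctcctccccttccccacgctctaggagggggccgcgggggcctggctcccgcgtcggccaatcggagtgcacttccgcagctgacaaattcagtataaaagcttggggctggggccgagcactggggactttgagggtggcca
Fosl2: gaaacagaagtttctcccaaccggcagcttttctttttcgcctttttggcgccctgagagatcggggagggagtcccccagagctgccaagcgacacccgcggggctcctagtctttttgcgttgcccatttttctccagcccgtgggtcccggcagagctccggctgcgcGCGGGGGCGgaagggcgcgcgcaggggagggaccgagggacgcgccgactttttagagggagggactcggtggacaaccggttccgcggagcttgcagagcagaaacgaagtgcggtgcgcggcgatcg
RefSeq windows were searched for 8 of the 10 genes. Fosl1 and Egr1 were not among them, although Egr1 also differed in a test below. Sites outside the 300 bases were not searched, so a count of 0 covers these windows only. The core was in 5 of 8, against 20.8% of 32851 mouse promoters of the same length, and the Fos window holds 2 copies. The full element was in 1 of 8 (Btg2), against 1.8% of promoters, and both core matches of that window lie inside it. The EGR site was in 3 of 8 (Fosb, Fosl2 and Btg2), against 5.6%. The AP-1 string TGACTCA was in 0 of 8 windows (5.2% of promoters), the CArG box of serum response factor in 0 of 8 (1.6%), and the NFAT core GGAAA in 2 of 8 (61.3%). A match is a match of letters only. Jund's window is not shown because it lies wholly before the GENCODE gene, but it is counted among the 8. The windows of Fosl2 and Atf3 lie wholly inside their GENCODE genes, so other starts of these genes were not searched.

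Junb had the highest median of the 10 genes in ILC2 and basophils and Jun in AEC1 and AEC2, while Fosl1 had the lowest in each. Junb ran from 2769 to 8482 CPM in ILC2 (median 6067, n = 9) and from 2897 to 3646 CPM in basophils (median 3136, n = 7). It was lower in AEC2 (170 to 1831 CPM, median 1009, n = 6) and AEC1 (399 to 1044 CPM, median 654, n = 6). No epithelial library reached the lowest ILC2 or basophil library for Junb, whereas ILC2 overlapped basophils and AEC2 overlapped AEC1. Jun, by contrast, overlapped among all 4 populations, with medians of 1963 CPM in AEC1, 1682 in AEC2, 1541 in basophils and 1042 in ILC2. Since 3' end libraries count about 1 read per transcript, gene length enters little into these levels, but the tables were normalized separately and the levels between ILC2, basophils and epithelium were not tested. The listed values summed to 986819 to 992527 CPM in AEC1 and 989855 to 992311 CPM in AEC2. They summed to only 612434 to 672357 CPM in basophils and 519768 to 636598 CPM in ILC2. A given CPM is thus a larger share of the listed values in ILC2 and basophils than in epithelium. Orders across these populations, such as that of the Jun medians, can depend on this. In bulk libraries, fewer expressing cells and less RNA per cell cannot be told apart.

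**Figure D1:**
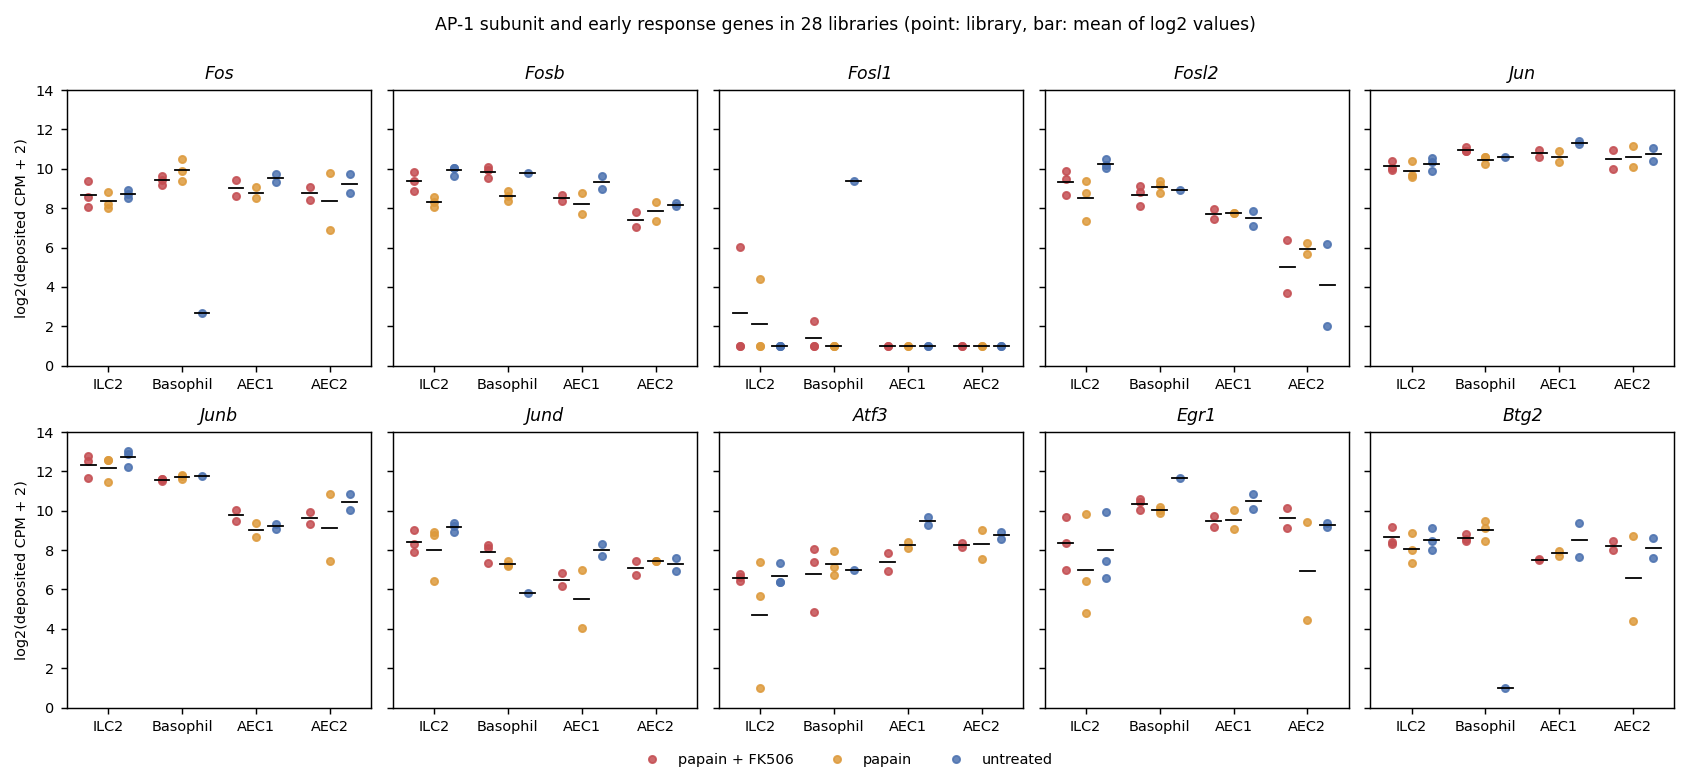
Levels of the 10 genes in each library, as log2(deposited CPM + 2), by population, with papain + FK506, papain and untreated libraries from left to right; points are libraries and bars the mean of the log2 values. Junb sits at 2769 CPM or above in ILC2, Fosl1 lies at 0 in 24 of 28 libraries, and Fos (4.3 CPM) and Btg2 (0 CPM) are low in the single untreated basophil library.

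Fosl2, the Fra-2 subunit, was ordered ILC2 (159 to 1450 CPM, median 720), basophils (275 to 657 CPM, median 483), AEC1 (137 to 244 CPM, median 212) and AEC2 (2 to 81.6 CPM, median 59.5). ILC2 and basophils overlapped in that order, whereas basophils and AEC1, and AEC1 and AEC2, did not. Fosb medians were 748 CPM in basophils, 656 in ILC2, 419 in AEC1 and 244 in AEC2, and all neighbours overlapped. Fos medians lay between 380 CPM (ILC2) and 698 CPM (basophils), Jund medians between 119 CPM (AEC1) and 475 CPM (ILC2), and Btg2 medians between 203 CPM (AEC1) and 382 CPM (basophils), with overlap throughout. Atf3 medians were 356 CPM in AEC2, 309 in AEC1, 140 in basophils and 83 in ILC2. Egr1 ran from 20.2 to 3234 CPM over all libraries, with overlapping neighbours and medians of 1175 CPM in basophils, 938 in AEC1, 617 in AEC2 and 171 in ILC2. Fosl1 (Fra-1) was listed at 0 in 12 of 12 epithelial libraries; it reached 63 CPM in ILC2 papain + FK506 1, 19 CPM in ILC2 papain 2, 2.8 CPM in basophil papain + FK506 9 and 667 CPM in the untreated basophil library.

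Between the epithelial populations, the test over all treatments called none of the 9 genes that passed the filter, against 12.7% of 9841 genes. Fosl2 came nearest. AEC2 libraries held 81.6 and 10.8 CPM with papain + FK506, 48.2 and 73.1 with papain, and 2 and 70.8 untreated, whereas AEC1 libraries held 173 and 244, 212 and 212, and 232 and 137 CPM in the same order of conditions. Every AEC2 library was below every AEC1 library, as in 4.90% of all genes, by -2.54 ± 0.77 on the log2 scale (SE, limma adjusted p = 0.0537). Without the near-identical AEC2 pair it was -3.36 (adjusted p = 0.0159), and Egr1 then also passed, at -1.97 (adjusted p = 0.00838). Fosb differed by -0.78 ± 0.35 with overlapping groups (limma adjusted p = 0.169), and by -0.97 without the pair (adjusted p = 0.123).

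In ILC2, all 9 tested genes had lower fitted levels with papain than untreated, but none passed the adjusted threshold. Their median log2 difference was -1.24, against -0.21 over all 6271 genes, and 0% of genes were called (237 genes had an unadjusted p under 0.05). By p-value Junb ranked 1, Fosl2 3 and Fosb 5 among all genes. These counts describe a list chosen with earlier results known. Of the 16 ILC2 markers, 8 had higher and 8 lower fitted levels in the same comparison.

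Fosb, whose protein has a short splice form that lasts long in cells, had 380, 312 and 265 CPM in papain ILC2, against 1070, 794 and 1071 CPM in untreated ILC2. The groups did not overlap (log2 difference -1.88 ± 0.46 SE, limma adjusted p = 0.233). Fosl2 had 666, 441 and 159 CPM with papain, against 1188, 1450 and 1037 CPM untreated. These groups did not overlap either, and the difference was -2.01 ± 0.45 (limma adjusted p = 0.104). Of the alternatives tried, robust variance estimates alone called Fosl2 (adjusted p = 0.00137) and Fosb (adjusted p = 0.00803). Jund, an AP-1 subunit usually present in resting cells, had 475, 429 and 83 CPM with papain, against 671, 591 and 484 CPM untreated. All its papain libraries were lower, at -1.42 ± 0.6 (limma adjusted p = 0.985), and at -0.65 without papain 3. Groups without overlap and lower with papain were thus seen in 3 of 9 genes, against 3.03% of all genes. Papain 3, which listed 3134 genes above 0, was the lowest papain library in all 3, and the part of this was not tested.

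Junb had 6073, 6067 and 2769 CPM in papain ILC2, against 7535, 8482 and 4736 CPM in untreated ILC2. The groups overlapped because replicate 3 was the lowest in both. Within each file code, every papain library was below every untreated one. With the file code in the model the log2 difference was -0.79 ± 0.16 (limma adjusted p = 0.0869). It passed with median-ratio size factors (-0.77, adjusted p = 0.00473), with robust variance estimates (-0.79, adjusted p = 0.00137), with the replicate number as a block (-0.79, adjusted p = 0.0366) and without ILC2 papain + FK506 1 (-0.76, adjusted p = 0.0295); over all alternatives its adjusted p ran from 0.00137 to 1. The 3' end of Junb overlaps Prdx2 on the opposite strand (351 bases, chr8:84974484-84974834). Whether counting used strand is not given, which leaves Junb uncertain, as it does Fosl1, whose 3' end overlaps Ccdc85b. Antisense genes overlap Jun and Jund too, but 2500 and 536 bases from their 3' ends, and their part was not tested. Prdx2 itself was listed at 0 to 84 CPM in ILC2, a value that the same overlap could affect. The part of the overlap in the Junb values was not tested.

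Fos had 257, 297 and 446 CPM in papain ILC2, against 420, 481 and 371 CPM in untreated ILC2, with overlap (-0.65 ± 0.57, limma adjusted p = 0.985). Jun had 1372, 832 and 774 CPM with papain, against 961, 1311 and 1493 CPM untreated, also with overlap (-0.63 ± 0.37, limma adjusted p = 0.985). Atf3, Egr1 and Btg2 overlapped as well, and Atf3 was listed at 0 in papain 3.

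With papain + FK506, the 9 genes all had higher fitted levels than with papain in ILC2, with a median log2 difference of 0.6 against 0.15 over all genes. None was called, against 0.0159% of 6271 genes. The ILC2 markers moved in the same comparison, with 15 of 16 at lower fitted levels, a median of -1.48 and none called. Papain + FK506 3, low in ILC2 markers and high in macrophage markers as given above, is 1 of the 3 libraries, and the part of either in these differences was not tested. Fosb had 921, 463 and 656 CPM with papain + FK506, against 380, 312 and 265 CPM with papain. Every papain + FK506 library was higher, by 1.08 ± 0.46 on the log2 scale (limma adjusted p = 0.93; 0.81 without papain + FK506 3), and Fosb was the 1 gene of 9 whose groups did not overlap and were higher (4.05% of all genes). Fosl2 had 944, 720 and 411 CPM, against 666, 441 and 159 CPM with papain, and was higher within each file code although the groups overlapped. The differences of Fos (0.36 ± 0.57) and Jun (0.25 ± 0.37) had a limma adjusted p of 0.984 each, and both turned sign when papain + FK506 3 was left out (-0.16 and -0.13). The 2 comparisons share the papain libraries, so opposite signs in them are not independent.

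Set against untreated ILC2, papain + FK506 ILC2 were lower in Fosl2 without overlap, at 944, 720 and 411 CPM against 1188, 1450 and 1037 CPM (-1.13 ± 0.45, limma adjusted p = 0.988). Non-overlapping and lower groups made up 3.24% of all genes. Junb, at 7004, 5809 and 3244 CPM against 7535, 8482 and 4736 CPM, overlapped (-0.64 ± 0.16, limma adjusted p = 0.489; -0.41 without papain + FK506 1). Fos (-0.29 ± 0.57, limma adjusted p = 0.999) and Jun (-0.38 ± 0.37, limma adjusted p = 0.994) overlapped, and 0% of genes were called (244 at an unadjusted p under 0.05).

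**Figure D2:**
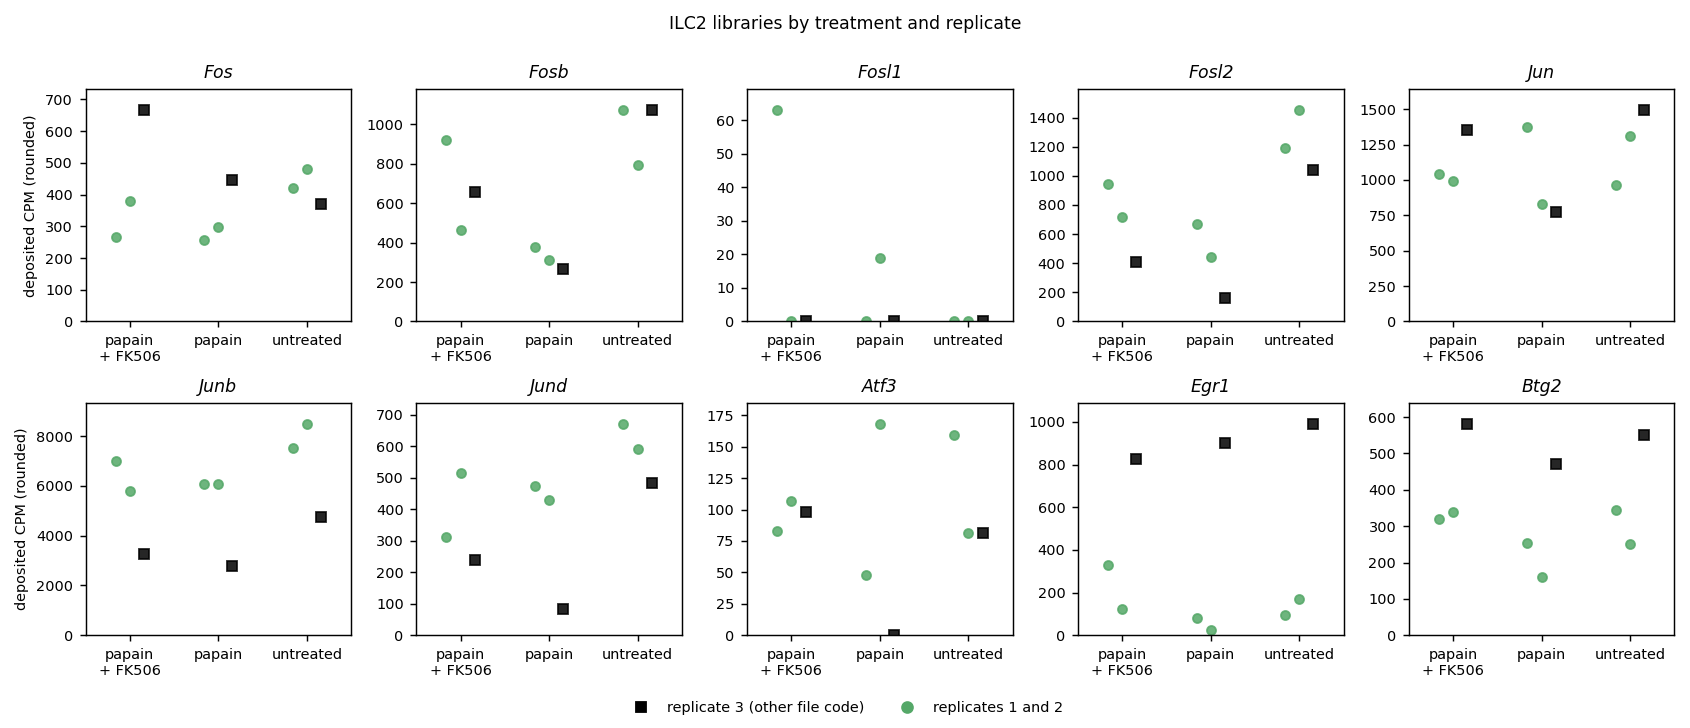
Deposited CPM of the 10 genes in the 9 ILC2 libraries, with papain + FK506, papain and untreated from left to right; black squares are the replicate 3 libraries and green circles replicates 1 and 2. Fosb and Fosl2 lie lower in all 3 papain libraries than in all 3 untreated ones, and Egr1 is at 827 CPM or above in each replicate 3 library.

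Replicate 3 libraries differed from replicates 1 and 2, over all conditions, in 3 of the 9 genes, against 5.31% of 6271 genes called. Egr1 had 827, 901 and 990 CPM in the replicate 3 libraries, against 330 and 124 with papain + FK506, 83 and 26 with papain, and 93 and 171 untreated in replicates 1 and 2. The groups were far apart (2.75 ± 0.63, limma adjusted p = 0.00494). Of all genes, 3.48% were higher in replicate 3 without overlap and 5.15% lower without overlap. Junb was lower in replicate 3, at 3244, 2769 and 4736 CPM, than in the other 6 libraries, which held 5809 CPM or more (-1.27 ± 0.14, limma adjusted p = 2.07e-08). Fosl2 was lower too, with overlap (-1.35 ± 0.39, limma adjusted p = 0.0315), but that call was kept under 6 of 18 alternatives and the difference was -0.86 without papain 3. None of the 3 was called when the variance had no trend on expression. Btg2 was higher in all 3 replicate 3 libraries (581, 471 and 552 CPM) than in the other 6 (161 to 345 CPM), a difference of 0.66 that did not pass (limma adjusted p = 0.468). Jund (-1.49 ± 0.52, limma adjusted p = 0.0798) and Atf3 (-2.12 ± 1.03, limma adjusted p = 0.234) had lower fitted levels in replicate 3, with overlap, and did not pass. Jund was called with robust variance estimates (adjusted p = 0.0217) and without papain + FK506 1 (adjusted p = 0.033). Markers of other cells moved with replicate 3. Of the 16 ILC2 markers, 16 had lower fitted levels and 7 were called lower, among them Thy1 (-4.81) and Il2ra (-5.47). Called higher were 5 of 7 AEC2 markers, 4 of 10 fibroblast and smooth muscle markers such as Acta2 (5.3), 2 of 8 endothelial markers such as Lyve1 (6.63), 2 of 2 neutrophil markers such as S100a8 (5.83), and 2 of 8 macrophage, monocyte and dendritic cell markers such as Chil3 (5.55), with 1 of the last list lower. Their part in the differences of Egr1, Junb and Fosl2 was not tested.

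Among the cells labelled basophils, papain + FK506 against papain called 0% of 5853 genes (351 at an unadjusted p under 0.05). Fosb had 1099, 748 and 976 CPM with papain + FK506, against 328, 474 and 398 CPM with papain. The groups did not overlap, and the log2 difference was 1.18 ± 0.38 (limma adjusted p = 0.689), which remained between 1.03 and 1.32 over 18 alternatives. Jun had 2233, 1939 and 1899 CPM, against 1541, 1193 and 1533 CPM with papain, again without overlap, at 0.47 ± 0.33 (limma adjusted p = 0.855). Higher, non-overlapping groups were seen in these 2 of 9 genes and in 5.77% of all genes. Alveolar type 2 markers summed to 11426, 9168 and 2439 CPM with papain + FK506, against 1828, 888 and 1209 CPM with papain. The markers of macrophages, monocytes and dendritic cells added up to 3414, 4934 and 6931 CPM, against 5647, 9888 and 11899 CPM, and the part of either in the Fosb and Jun differences was not tested.

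Fos had 573, 807 and 698 CPM with papain + FK506, against 676, 1454 and 956 CPM with papain, with overlap (-0.56 ± 0.43, limma adjusted p = 0.857). Junb, Jund, Fosl2, Atf3, Egr1 and Btg2 overlapped too. The FK506 response in ILC2 minus that in basophils was -0.14 ± 0.6 for Fosb (limma adjusted p = 0.986) and 1.31 ± 0.64 for Fosl2 (limma adjusted p = 0.898; 0.81 without ILC2 papain 3). None of the 10 genes passed, and 0% of 8409 genes were called (455 at an unadjusted p under 0.05).

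The comparisons of treated with untreated basophils rest on 1 untreated library, so its own spread was not measured and the model lends it that of the other groups. Calls here set the treated libraries against that 1 library, which listed 2002 genes above 0, and cannot show a treatment difference. Fos had 676, 1454 and 956 CPM with papain, against 4.3 CPM in the untreated library, and was higher by 7.56 ± 0.61 (limma adjusted p = 1.47e-06). Btg2 had 700, 553 and 355 CPM with papain and was listed at 0 untreated, so no fold is given (limma adjusted p = 1.48e-06). They were the 2 of 9 genes called, against 23.1% of 5853 genes (21.0% higher and 2.07% lower). The median over the 9 genes was 0.56, and that over all genes was 3.05, a value that depends on the added 2 CPM because many genes were listed at 0 in the untreated library.

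Egr1 had 1050, 1175 and 936 CPM with papain, against 3234 CPM untreated (-1.25 ± 0.5, limma adjusted p = 0.083), and was called lower under 3 other scalings (-1.62 to -1.71), with robust variance, with the 2 groups alone and without papain + FK506 7 (-1.25 each). Jund had 152, 142 and 174 CPM, against 54.8 CPM (1.84 ± 0.71, limma adjusted p = 0.0758). Jun, at 1541, 1193 and 1533 CPM against 1537 CPM, gave 0.26 ± 0.47 (limma adjusted p = 0.645), and this sign flipped under the 3 scalings. Fosl1 was listed at 0 in all 3 papain libraries, against 667 CPM untreated. With papain + FK506 over the untreated library, Fos (7 ± 0.61, limma adjusted p = 2.68e-06), Btg2 (limma adjusted p = 2.68e-06) and Jund were called, against 23.3% of genes. Jund had 277, 308 and 158 CPM with papain + FK506, against 54.8 CPM untreated (2.4 ± 0.71, limma adjusted p = 0.0232), a call lost with no variance trend (adjusted p = 0.143) and without papain + FK506 8 (adjusted p = 0.0579). Jun was at 0.72 ± 0.47 (limma adjusted p = 0.271).

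In the cells labelled AEC1, 8 of 9 genes had lower fitted levels with papain, but none was called, and 0% of 8178 genes were (765 at an unadjusted p under 0.05). Jun had 1930 and 1281 CPM with papain, against 2700 and 2466 CPM untreated (-0.69 ± 0.28, limma adjusted p = 0.519). Jund had 124 and 14.4 CPM, against 318 and 207 CPM (-2.49 ± 0.95, limma adjusted p = 0.499), a difference of -3.78 without papain 1 and -1.14 without papain 2. Atf3 had 273 and 345 CPM, against 620 and 810 CPM (-1.18 ± 0.51, limma adjusted p = 0.531). In these 3 genes, and in Fos, Fosb and Egr1, both papain libraries were below both untreated ones, which made 6 of 9 genes, against 14.2% of all genes. Fos had 539 and 361 CPM with papain, against 858 and 650 CPM untreated (-0.73 ± 0.41, limma adjusted p = 0.643). The median over the 9 genes was -0.73, against 0.17 over all genes. Markers of other cells separated the same libraries. AEC2 markers summed to 2538 and 1697 CPM with papain, against 6808 and 10209 CPM untreated, airway markers to 221 and 219 CPM, against 844 and 614 CPM, and mesothelial markers to 2746 and 4190 CPM, against 5795 and 4442 CPM. Their part in the differences of the 6 genes was not tested.

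Papain + FK506 against untreated AEC1 showed 6 of 9 genes lower without overlap, against 14.4% of all genes, and 0.0245% of genes were called. Junb was higher without overlap (24.9% of all genes), at 1044 and 718 CPM, against 651 and 541 CPM. In the same comparison 8 of 8 AEC2 and 5 of 5 mesothelial markers had lower fitted levels, and 11 of 13 fibroblast and smooth muscle markers higher ones. Atf3 was at 232 and 122 CPM, against 620 and 810 CPM (-2.19 ± 0.51, limma adjusted p = 0.313). Egr1 was at 838 and 584 CPM, against 1836 and 1095 CPM (-1.14 ± 0.4, limma adjusted p = 0.34). DESeq2 on recovered reads called both, at -2.28 (adjusted p = 3.38e-05) and -1.29 (adjusted p = 0.0147), whereas edgeR called neither. Jun was at 1997 and 1559 CPM, against 2700 and 2466 CPM (-0.67 ± 0.28, limma adjusted p = 0.42), and Fos at -0.63 ± 0.41 (limma adjusted p = 0.625). Papain + FK506 against papain gave 0.11 ± 0.41 for Fos and 0.01 ± 0.28 for Jun (limma adjusted p = 1 each), with 0% of genes called (496 at an unadjusted p under 0.05). Of the 9 genes, Junb was higher without overlap (1044 and 718 CPM, against 657 and 399 CPM), and Atf3 and Btg2 were lower, against 32.5% of all genes without overlap.

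**Figure D3:**
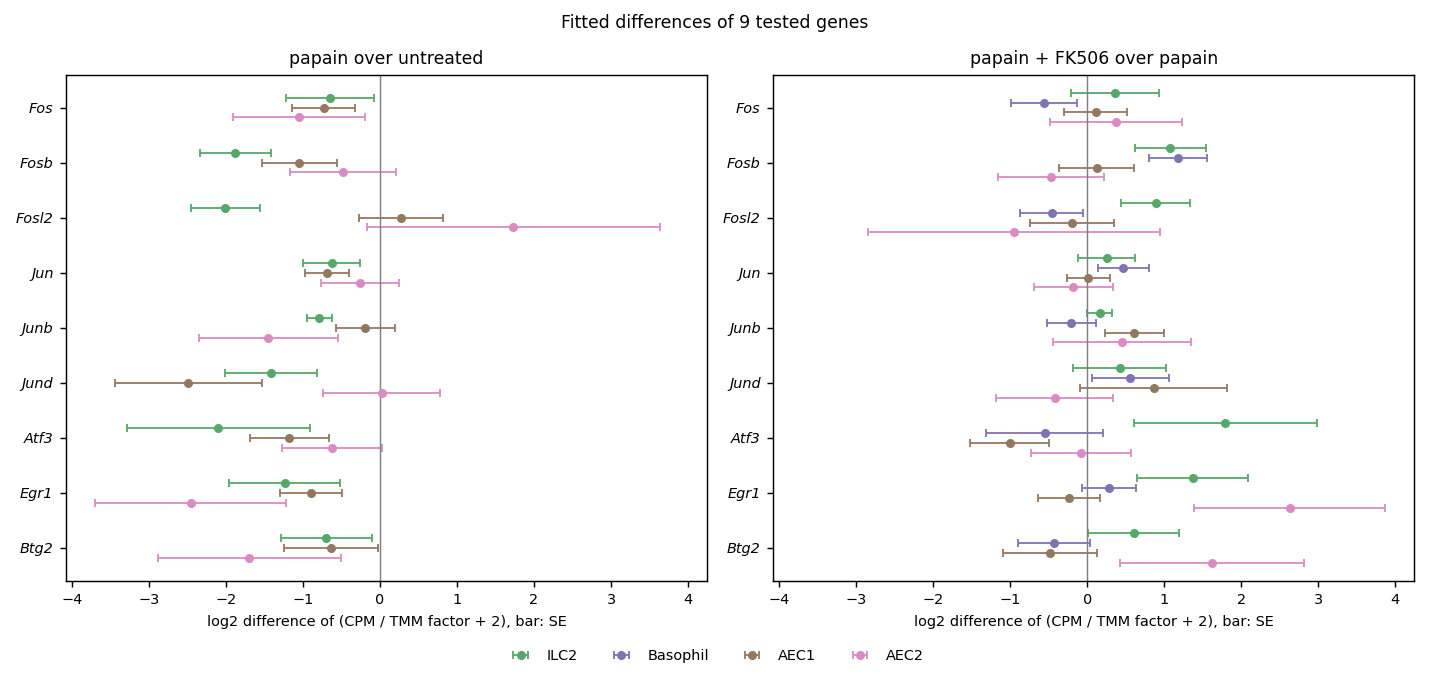
Fitted log2 differences with their standard errors for 9 genes, papain over untreated on the left (ILC2, AEC1, AEC2) and papain + FK506 over papain on the right (with basophils), with 0 marked by a line. All ILC2 and AEC1 points except Fosl2 in AEC1 lie below 0 on the left, and Fosb lies at 1.08 in ILC2 and 1.18 in basophils on the right.

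In AEC2 no gene of the 10 had an unadjusted p under 0.05 in any of the 3 comparisons, and 0% of 6719 genes were called in each (12, 279 and 303 at an unadjusted p under 0.05, for papain over untreated, papain + FK506 over papain, and papain + FK506 over untreated). The papain libraries lay far apart. Fos was at 119 and 870 CPM with papain, against 429 and 853 CPM untreated (-1.05 ± 0.86, limma adjusted p = 1). Egr1 was at 20.2 and 691 CPM with papain, Btg2 at 19.4 and 415 CPM, and Junb at 170 and 1819 CPM. Untreated libraries held 576 and 657 CPM of Egr1, 195 and 393 CPM of Btg2, and 1048 and 1831 CPM of Junb. In each, papain 1, which listed 4441 genes above 0, was the low library, and papain 2 was close to untreated 2. Without the near-identical pair, 1 library per condition was left in these 2 groups, and Fos gave -2.09 (adjusted p = 0.446).

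Jun was at 1096 and 2266 CPM with papain, against 1355 and 2156 CPM untreated (-0.26 ± 0.51, limma adjusted p = 1; -0.56 without the pair). With papain + FK506 it was at 2010 and 1030 CPM, and Fos at 545 and 341 CPM. The differences from papain were -0.18 ± 0.51 for Jun (limma adjusted p = 1; 0.39 without the pair) and 0.37 ± 0.86 for Fos (limma adjusted p = 0.997; 1.84 without the pair). Those from untreated were -0.44 ± 0.51 (Jun) and -0.68 ± 0.86 (Fos), with a limma adjusted p of 0.923 and 0.928, and -0.17 (Jun) and -0.25 (Fos) without the pair. Fosb, Junb and Atf3 were lower without overlap with papain + FK506 than untreated, 3 of 9 genes against 29.9% of all genes without overlap in either direction. Fosb was at 219 and 130 CPM, against 270 and 303 CPM, Junb at 970 and 641 CPM, against 1048 and 1831 CPM, and Atf3 at 329 and 281 CPM, against 383 and 489 CPM, and each was also lower than untreated 1 alone. Responses to papain and to FK506 were also compared between AEC2 and AEC1, and none of the 9 genes passed in either, with or without the pair, with 0% of 9841 genes called (455 and 565 at an unadjusted p under 0.05).

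Other genes of the same pathways were counted from lists chosen with earlier results known. In papain over untreated ILC2, 37 of 48 other early response genes had lower fitted levels, with a median of -0.82 against -0.21 over all genes, and none was called. In papain + FK506 over papain ILC2, 31 of 48 had higher fitted levels and 1 was called, against 0.0159% of all genes. This was Cxcl2, a neutrophil-attracting chemokine, at 3411, 1801 and 11009 CPM, against 1141, 596 and 4398 CPM (1.53 ± 0.25, limma adjusted p = 0.00127), higher within each file code. The value of 11009 CPM is that of papain + FK506 3, the library low in ILC2 markers. Without it the difference was 1.3 (adjusted p = 0.816), and the call was kept under 13 of 22 alternatives. Of 16 tested AP-1 target genes and 11 calcineurin and NFAT genes, none was called in any of the 3 treatment comparisons of ILC2.

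Against the single untreated basophil library, papain basophils had 11 of 27 other zipper factors called higher, 22 of 50 other early response genes called higher and 1 lower, and 8 of 25 upstream kinases and ternary complex factors higher and 1 lower, beside 21.0% of all genes higher and 2.07% lower. Markers of other cells were called in the same comparison, with 4 of 9 AEC2 markers higher, 5 of 16 macrophage, monocyte and dendritic cell markers higher, and 3 of 9 fibroblast and smooth muscle markers higher and 3 lower. Their part in the list counts was not tested. Atf4, a zipper factor of the integrated stress response, had 450, 534 and 272 CPM, against 0.5 CPM (limma adjusted p = 6.03e-06). Nfe2l2, the oxidative stress factor Nrf2, had 261, 506.1 and 116 CPM, against 1.4 CPM (limma adjusted p = 7.13e-05). Klf9 and Csrnp1 were listed at 0 in the untreated library and were called. No fold is given for these, since the untreated library lists at most 1.4 CPM of them.

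The genes whose pattern over the 12 group means was most like that of Fos, among 5732 genes, were Cox4i1 (Pearson r 0.98), Btg2, Uqcrfs1, Klf9 and M6pr (0.97 each). For Jun they were Gstm1 and Slc10a6 (0.87 each), Laptm4a, Spag17 and Sorbs3 (0.82 each). The 12 points share libraries and normalization, and the untreated basophil point, low in Fos, weighs on all 5 values for Fos.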

How the data were processed

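RNA of sorted lung cells was made into 3' end libraries with a Lexogen kit, per the labels' protocols. STAR 2.7.0c, featureCounts 1.6.0, mm10 and GRCm38.p6 are listed in the submitters' processing notes. The authors deposited CPM for AEC1, basophil and 5 AEC2 libraries. For AEC2 untreated 1 and all ILC2 libraries the deposited values are whole numbers, treated as a score (CPM rounded by the authors). Whether counting used strand is not given. Gapdh was listed at 0 in most epithelial libraries, so 0 means only listed at 0.

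Genes reaching 10 CPM in 2 (AEC) or 3 (other) libraries were kept. Values were divided by TMM factors (edgeR 4.0.16), 2 CPM added, and limma 3.58.1 (R 4.3.3, trended variance) was fitted to the log2 values, with a file code term for ILC2; differences understate low genes. P-values are two-sided and Benjamini-Hochberg adjusted over all genes, with a threshold of 0.05. Alternatives were other scalings, pseudocounts, filters and variance settings, a replicate block and each library left out, and edgeR and DESeq2 1.42.0 were run on whole reads recovered for AEC libraries (100% of low values within 0.1 read). The scripts were tested on simulated data. The members and lists were chosen with earlier results of these data known. All 10 genes are named; statistics are given for those with an unadjusted p under 0.05 and for Fos and Jun, plus up to 4 genes per other list. Same-numbered ILC2 libraries correlated by 0.05 to 0.24 in their deviations, so numbers were not taken as pairs.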

Additional observations from a re-analysis of the deposited data

How the results depend on the processing

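Of 1322 alternative values, 1224 were rated as the same. For a log2 difference this meant the same direction and side of the threshold. A count of genes called was rated the same after a small change too, such as from 2 to 3, so this number overstates how stable the calls were. The number of the genes called changed as follows; unless a value shows it, the cause was not tested. Papain over untreated ILC2 had 1 with median-ratio size factors, 3 with robust variance, 1 with the replicate block in place of the file code (Junb, -0.79), and 0 to 1 with a library left out. Papain over untreated basophils (2 as reported) had 3 with no scaling, size factors, division by the sum, no filter and robust variance, 4 with the 2 groups alone and 2 to 4 with a library left out. Papain + FK506 over untreated basophils (3 as reported) had 4 with division by the sum and no filter, 2 with no variance trend and 2 to 3 with a library left out. Papain + FK506 over untreated AEC1 had 2 with DESeq2. AEC2 over AEC1 had 1 with no scaling, size factors, division by the sum, a pseudocount of 5, a filter of 20 CPM and robust variance, 0 to 1 with a library left out (Fosl2, Junb or Egr1), and 2 without the near-identical pair, an alternative added after seeing the data. The ILC2 file code (3 as reported) had 0 with no variance trend, 2 with no scaling, size factors, division by the sum and no filter, 4 with robust variance, and 2 to 4 with a library left out. Numbers did not pair ILC2 samples; the replicate block changed no other call.

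Signs of Fos and Jun turned in small differences. For papain + FK506 over papain, Jun in ILC2 gave -0.27 within replicates 1 and 2, and -0.17 to 0.65 with a library left out, while Fos gave -0.16 to 0.88. Fos in papain + FK506 over untreated ILC2 gave -0.81 to 0.26. Jun in papain over untreated basophils gave -0.12 with no scaling, -0.13 with size factors and -0.21 with division by the sum. In AEC1, papain + FK506 over papain, Jun gave -0.04 with size factors and with DESeq2, -0.01 with the 2 groups alone and -0.14 to 0.14 with a library left out, and Fos gave -0.27 to 0.45. In AEC2, papain over untreated, Fos gave -2.51 to 0.45 and Jun -0.82 to 0.33 with a library left out. For papain + FK506 over papain there, Fos gave -0.25 with edgeR, -0.3 with DESeq2 and -1.13 to 1.86 with a library left out, and Jun gave 0.39 without the pair and -0.77 to 0.41 with a library left out. For papain + FK506 over untreated AEC2, Jun gave -0.91 to 0.09. The scaling moved the median of all genes by over 0.1 in ILC2 file codes, from -0.91 to -0.7, and in papain over untreated ILC2, from -0.21 to -0.05. On recovered reads, edgeR called 15, 0 and 29 genes and DESeq2 305, 84 and 457 in AEC1 (papain over untreated, papain + FK506 over papain, papain + FK506 over untreated), against 0, 0 and 2 with limma. In AEC2 edgeR called 0 in each and DESeq2 0, 67 and 19. Over the alternatives, papain over untreated basophils had 973 to 2553 genes called (1353 as reported), papain + FK506 over untreated 1042 to 2335 (1366 as reported), and the ILC2 file code 113 to 409 (333 as reported); treatment comparisons in ILC2 had at most 8. One read is near 1 CPM in epithelial libraries, which limits values such as 2 CPM.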
